A study of Mus musculus with 6 samples.

Results

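Plasma membrane amino acid transporters of systems A, N, L and ASC and of the cationic system were examined in mouse livers after an acetaminophen (APAP) overdose. The members were 10 genes listed by symbol, namely Slc38a1, Slc38a2 and Slc38a4 (system A), Slc38a3 (system N), Slc7a5 and Slc3a2 (system L), Slc7a1 and Slc7a2 (cationic amino acids), and Slc1a4 and Slc1a5 (system ASC). Each symbol matched 1 row, so that 10 of the 34745 genes in the table were members. The APAP mice were WT mice injected with APAP at 300 mg/kg and sampled 12 hours later, and the control mice were WT mice given saline. Mice of both groups had been fasted for 12 hours before the injection, and the Methods name young adult male C57BL/6J mice. The samples comprise 3 livers per group, of which 2 APAP libraries (replicates 1 and 3) and 3 saline libraries (WT1, WT2 and WT3) were analysed here. The liver of APAP replicate 2 was not analysed here. Saline libraries were read as such from the column name WT, which does not say which of the 3 saline mice each one is.

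These carriers set how much amino acid a liver cell takes up from portal and arterial blood. System A carriers move small neutral amino acids such as alanine together with sodium and can build up a steep gradient. The system N carrier Slc38a3 moves glutamine, histidine and asparagine with sodium in exchange for protons, and can run in either direction. System L is a heterodimer in which Slc7a5 (LAT1) forms the pore for large neutral amino acids and Slc3a2 (4F2hc) is the chaperone that brings it, and several other Slc7 light chains, to the membrane. Slc7a1 (CAT1) and Slc7a2 (CAT2) carry arginine, lysine and ornithine, and the ASC carriers Slc1a4 (ASCT1) and Slc1a5 (ASCT2) exchange alanine, serine, cysteine and, in the case of Slc1a5, glutamine.

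The total count was between 13378445 and 15976339 per library. The APAP and saline libraries were also separated by sex-linked genes. Xist, the RNA that silences an X chromosome, was at 0.764 and 1.73 CPM (read counts scaled to a common library size by TMM) with APAP and between 289.6 and 914 CPM with saline, and Ddx3y, on the Y chromosome, at 61.7 and 78.97 CPM with APAP and at no more than 1 count in each saline library. The saline libraries thus had the pattern of female mice, which goes against the male mice named in the Methods, and the APAP libraries that of male mice. Whether the columns named WT are the saline mice of this study could not be checked further, and all comparisons here take them as such. Sex-linked expression and treatment cannot be told apart in any difference given here. Hepatocyte markers were abundant in all libraries, with a summed level of 80192 and 125487 CPM with APAP and 125767 to 173209 CPM with saline. Most of this sum was Alb, at 51545 and 89798 CPM with APAP and 95101 to 129117 CPM with saline. Levels given relative to the sum are therefore close to ratios to Alb. Of the 7 markers, Fgb (0.77) and Apoa1 (0.57) had log2 fold changes above 0 and the other 5 below. Centrilobular markers summed to 1069 and 2040.5 CPM with APAP against 8158 to 13623 CPM with saline, and all 8 had fitted values below 0. Periportal markers summed to 3770.5 and 4965 CPM against 8416 to 8750.5 CPM. Neutrophil markers summed to 79.1 and 121 CPM with APAP and to no more than 8.89 CPM with saline, with 6 of 8 tested markers called higher, although the defining marker Ly6g, with no count in saline livers, was at no more than 0.494 CPM with APAP. At such low saline levels a marker can pass the filter on low counts through the APAP libraries alone, so these neutrophil calls add no support. Cholangiocyte markers summed to 347 and 356 CPM with APAP and to 47.1 to 52.3 CPM with saline, and 2 of 5 tested ones were called higher. Of all genes tested, 3.7% were called higher. The part of these shifts in the results below was not tested, and in whole liver fewer cells of a type cannot be told apart from less RNA per cell.

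Of the 10 members, 1 rose and 1 fell with APAP at an adjusted p under 0.05, against 7.23% of all genes tested (3.7% that rose and 3.53% that fell). Slc1a4 rose 3.69-fold, and Slc38a4, the most abundant of the 10, fell to 31.1% of its saline mean. The other 8 did not pass. The groups did not overlap for 5 members, with APAP higher for 3 and lower for 2, which compares with 44.1% of all genes tested (24.0% higher and 20.1% lower). By the threshold that the study names, a change of 1.5-fold or more with an unadjusted P under 0.05, these same 5 differed, since Slc7a1 and Slc7a5 also lay above and Slc38a3 below their saline levels. It was passed by 23.5% of all genes tested, 12.3% higher and 11.2% lower. The test was the quasi-likelihood test of edgeR, and p-values were adjusted after Benjamini and Hochberg over the 13734 genes that passed a filter on low counts. All 10 members passed this filter, each with at least 2 saline libraries above its level. The median log2 fold change of the members was 0.27, against 0.03 for all genes tested.

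**Figure D1:**
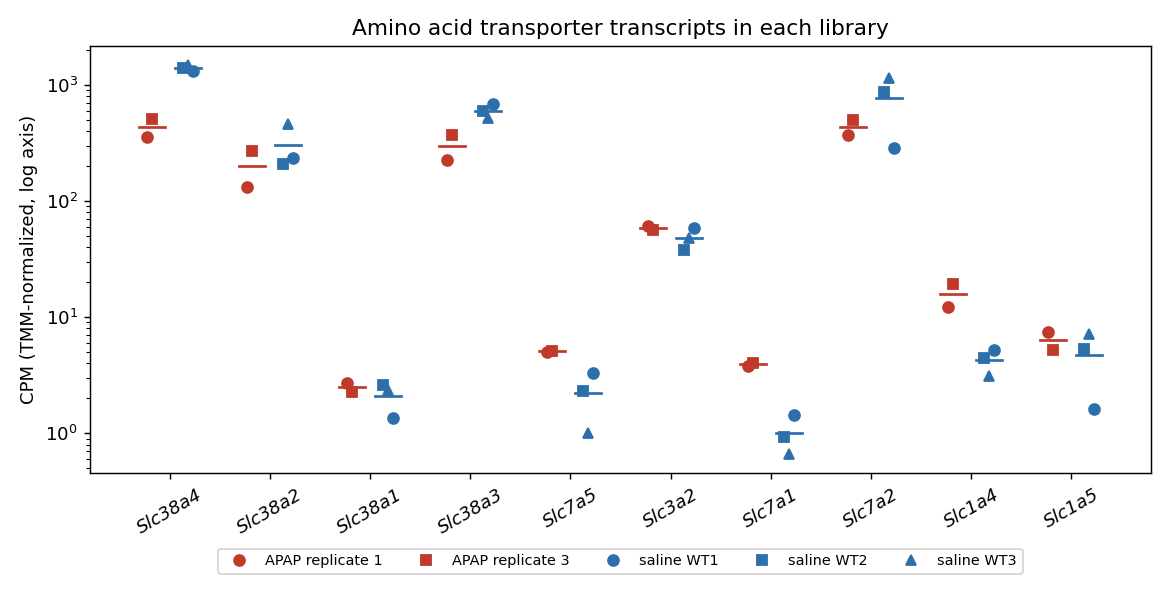
CPM of the 10 transporters (log axis) in each of the 5 libraries, with APAP in red and saline in blue and the group mean as a line. The groups were apart for Slc38a4, Slc38a3, Slc7a5, Slc7a1 and Slc1a4 and overlapped for the other 5 genes.

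**Figure D2:**
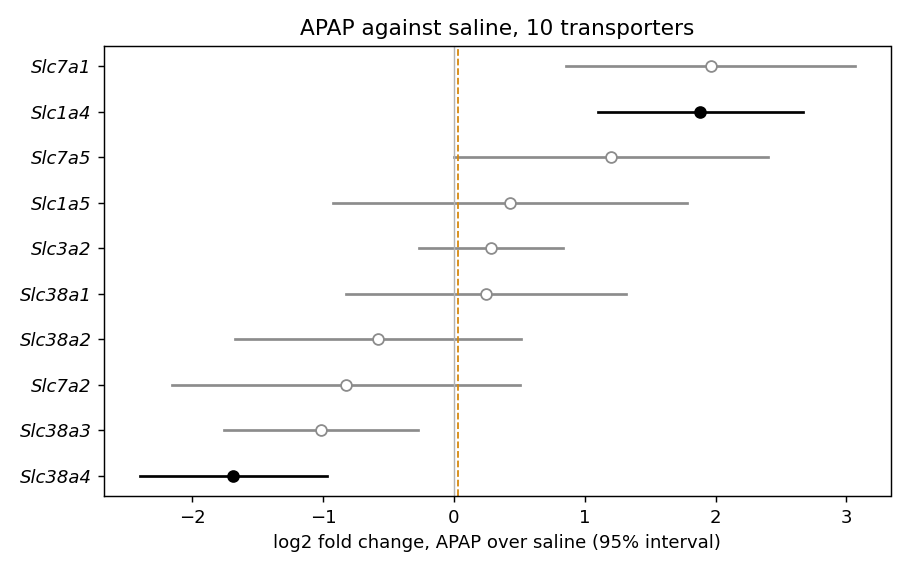
Fitted log2 fold change of each transporter, APAP over saline, with its 95% interval. Filled points had an adjusted p under 0.05 and the dashed line is the median of all genes tested, at 0.03. Values ranged from −1.69 for Slc38a4 to 1.96 for Slc7a1.

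The DNA around the annotated start is shown for 3 transporters, namely Slc1a4, which rose, Slc7a1, which had the highest fitted value, and Slc38a4, which fell. Each stretch is printed 5′ to 3′ on the strand of the gene from 150 bases before to 20 bases from the RefSeq start (GRCm38.p6, minus strand), at chr11:20332694-20332863 for Slc1a4, chr5:148399885-148400054 for Slc7a1 and chr15:97055937-97056106 for Slc38a4. Capitals mark a match to TGATGNAA on either strand, the core of the composite element bound by C/EBP and ATF factors such as ATF4.
Slc1a4: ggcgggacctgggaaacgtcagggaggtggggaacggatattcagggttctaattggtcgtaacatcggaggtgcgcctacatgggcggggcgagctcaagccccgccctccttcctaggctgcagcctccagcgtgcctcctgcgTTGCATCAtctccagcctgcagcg
Slc7a1: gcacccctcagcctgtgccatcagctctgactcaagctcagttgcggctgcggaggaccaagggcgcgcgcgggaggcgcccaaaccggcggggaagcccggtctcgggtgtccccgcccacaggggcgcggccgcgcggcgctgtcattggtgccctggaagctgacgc
Slc38a4: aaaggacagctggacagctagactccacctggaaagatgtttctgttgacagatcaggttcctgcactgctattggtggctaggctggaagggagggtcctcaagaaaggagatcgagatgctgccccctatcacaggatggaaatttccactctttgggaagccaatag

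RefSeq windows from 250 bases before to 50 bases after a start were searched for TGATGNAA, for the E-box CACGTG and for the cAMP response element TGACGTCA, each on both strands. Of the 10 members, 5 had a window (8 windows in all), and these were Slc7a1, Slc3a2, Slc38a2, Slc38a4 and Slc1a4. The match in Slc1a4 (TTGCATCA, the motif on the opposite strand, at positions 20332710 to 20332717 of chromosome 11) was the only one of TGATGNAA, and neither of the other motifs occurred in a window of a member. It spans the annotated start, with 4 bases before it and 4 from it, and overlaps no other motif that was searched. Of all 32851 windows, 3.97% held TGATGNAA, 7.15% the E-box and 1.79% the cAMP response element, so that 1 match among 8 windows is a description only. The full windows around the starts printed above were rich in CpG for Slc1a4 and Slc7a1, with 21 and 27 CpG dinucleotides and a GC content of 65% each. That of Slc38a4 held 5 and had a GC content of 53%, while the median of all windows was 7 CpG and 52.7%. A further start of Slc7a1 had 7 CpG and a GC content of 51.7%, and those of Slc38a4 had 5 CpG each and a GC content of 46.7% and 45.3%.

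System A and system N carriers together made up most of the summed transporter level per kb in saline liver. Slc38a4 fell with APAP, the fitted values of Slc38a3 and Slc38a2 were below 0 without passing the test, and that of the scarce Slc38a1 was above 0. Slc38a4 (SNAT4, ENSMUSG00000022464), the main system A carrier of hepatocytes, lies at 96994823 to 97055956 of chromosome 15 (GRCm38). Its level was 355 and 512 CPM in APAP replicates 1 and 3 and 1323, 1390.4 and 1472 CPM in WT1, WT2 and WT3. The saline libraries were close to each other, and the higher APAP library was far below the lowest of them. The means were 434 ± 111 CPM (SD, n = 2 libraries) with APAP and 1395 ± 74.2 CPM (SD, n = 3) in saline liver, and the log2 fold change was −1.69 (SE 0.30, adjusted p = 0.0249 by the edgeR test). The fold change lay between −1.98 and −1.32 under the 13 alternatives, but the adjusted p, which ranged from 7.35e-10 to 0.155 over them, was above 0.05 without APAP replicate 1 (0.155), without APAP replicate 3 (0.0601) and without WT2 (0.102). Relative to the summed hepatocyte markers of the same library, Slc38a4 was at 4.43 and 4.08 CPM per 1000 CPM of these markers with APAP and at 7.64, 11.1 and 9.59 with saline. These groups did not overlap either, and the difference was −1.13 on the log2 scale.

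Slc38a2 (SNAT2, ENSMUSG00000022462, chromosome 15, 96687394 to 96699698) is the system A carrier known to be raised by amino acid shortage. It was at 132 and 272 CPM after APAP and at 234, 209.98 and 461 CPM after saline. WT1 and WT2 lay between the APAP libraries, and WT3 was far above the rest. The log2 fold change was −0.58 (95% interval −1.67 to 0.51, adjusted p = 0.49 from the same edgeR test), an interval that runs from 0.314-fold to 1.43-fold of the saline level. It was −0.14 without APAP replicate 1, −0.14 without WT3 and −1.20 without APAP replicate 3. Relative to the hepatocyte markers the difference was −0.0032 on the log2 scale.
Slc38a1 (SNAT1, ENSMUSG00000023169, chromosome 15, 96571418 to 96642913), the system A carrier of brain and many other tissues, was scarce. It had 46 and 37 counts with APAP (2.703 and 2.29 CPM) and 15, 39 and 35 counts with saline (1.34, 2.59 and 2.34 CPM). Both groups covered the same range except for the low library WT1, and the log2 fold change was 0.25 (95% interval −0.82 to 1.32, adjusted p = 0.784), or 0.03 without WT1. Slc38a1, Slc38a2 and Slc38a4 lie within 484.5 kb of chromosome 15 on the minus strand.

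Slc38a3 (SNAT3, ENSMUSG00000010064, chromosome 9, 107650634 to 107669530), the glutamine carrier of system N, was at 225 and 368 CPM after APAP and at 686, 593 and 517 CPM after saline. Both APAP libraries were below all saline libraries. The means of 296 ± 101 CPM (SD, n = 2) and 599 ± 84.4 CPM (SD, n = 3) gave a log2 fold change of −1.02 (SE 0.31, unadjusted P = 0.0142), which passed the threshold of the study but not the adjusted one (adjusted p = 0.102 by the edgeR test). The adjusted p was 0.00822 with DESeq2 and between 0.0534 and 0.432 under the other alternatives, and without APAP replicate 1 the log2 fold change was −0.70 and the threshold of the study was not passed. Relative to the hepatocyte markers the difference was −0.47 on the log2 scale, and the groups were still apart.

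Neither chain of system L passed the adjusted test, and both were scarcer per kb than Slc38a2, Slc38a3 and Slc38a4 in saline liver. Slc7a5 (LAT1, ENSMUSG00000040010, chromosome 8, 121881150 to 121907694), the pore-forming chain, had 85 and 83 counts with APAP and 37, 35 and 15 counts with saline. In CPM it was at 4.99 and 5.13 with APAP and at 3.32, 2.33 and 1.0021 with saline, so that both APAP libraries were above all saline libraries. The log2 fold change was 1.20 (SE 0.51, 95% interval 0.0016 to 2.40). It passed the threshold of the study only just (unadjusted P = 0.0498) and not the adjusted one (adjusted p = 0.201 from the edgeR test), and its unadjusted call was lost with DESeq2, with RLE size factors and without APAP replicate 1, APAP replicate 3, WT2 or WT3. The fitted value was 0.85 without WT3.
Slc3a2 (4F2hc, ENSMUSG00000010095, chromosome 19, 8706882 to 8723369), the shared heavy chain, was at 60.3 and 56.7 CPM after APAP and at 58.0, 38.1 and 47.97 CPM after saline. WT1 lay between the APAP libraries, so the groups overlapped. The log2 fold change was 0.29 (95% interval −0.27 to 0.84, adjusted p = 0.499), and without WT2 it was 0.14. Relative to the hepatocyte markers of the same library, Slc3a2 was at 0.752 and 0.452 CPM per 1000 CPM of markers with APAP and at 0.335, 0.303 and 0.313 with saline. On this scale both APAP libraries were above all saline libraries, with a log2 difference of 0.88 that was not tested. Of the 50-base words of its longest coding transcript, 4.41% also occur in another gene, mainly Aaed1, against no more than 0.42% for each of the other members.
The ratio of heavy to light chain transcripts, in CPM per kb of exon, was 12.7 and 11.6 with APAP and 18.4, 17.2 and 50.3 with saline. All saline libraries had a higher ratio than either APAP library, and the log2 difference was −1.05, or −0.55 without WT3. The exact permutation test over libraries (two-sided) gave p = 0.2, the smallest that 2 against 3 libraries allow, and an adjusted p of 0.267 over the 4 ratios that were compared.

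Of the cationic carriers, Slc7a2 was abundant and Slc7a1 scarce, and neither passed the adjusted test. Slc7a2 (CAT2, ENSMUSG00000031596, chromosome 8, 40862396 to 40922308), whose liver form has a low affinity for arginine, was at 370.1 and 499 CPM after APAP and at 284, 871 and 1147 CPM after saline. WT1 was below both APAP libraries and the other saline libraries were above them, so that the saline mean of 768 ± 441 CPM (SD, n = 3) rests on a wide spread. The log2 fold change was −0.82 (95% interval −2.15 to 0.51, adjusted p = 0.42 from the edgeR test). Without WT1 it was −1.21 (adjusted p = 0.0935), a value that passed the threshold of the study, and without WT3 it was −0.41. Relative to the hepatocyte markers the difference was −0.04 on the log2 scale. An antisense noncoding gene, Gm26584, overlaps 6.95% of the exon bases of Slc7a2, and the strand setting of the counting is not given in the sources used here.
Slc7a1 (CAT1, ENSMUSG00000041313, chromosome 5, 148327410 to 148399904), the high-affinity carrier found in most other tissues, had 65 counts in each APAP library and 16, 14 and 10 counts in the saline libraries. In CPM it was at 3.82 and 4.02 with APAP and at 1.43, 0.93 and 0.668 with saline, all above the 0.199 to 0.269 CPM that 3 counts, taken as the floor of detection, stand for in a saline library. Both APAP libraries were well above all saline libraries, with a log2 fold change of 1.96 (SE 0.47, 95% interval 0.86 to 3.06). The adjusted p was 0.0529 with the edgeR test, just above the threshold, and between 0.00318 and 0.215 under the alternatives. It was under 0.05 with the likelihood ratio test, the exact test, DESeq2, library size only and both other filters on low counts, and above 0.05 with each library left out in turn.
The ratio of Slc7a1 to Slc7a2 per kb was 0.00818 and 0.00638 with APAP and 0.004, 0.000846 and 0.000461 with saline. Slc7a2 thus remained far above Slc7a1 in all 5 libraries, with a ratio that was 2.64 higher on the log2 scale with APAP, or 3.53 without WT1 (exact permutation test, two-sided, p = 0.2, the smallest possible).

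Of the ASC carriers, Slc1a4 rose and Slc1a5 did not pass the test. Slc1a4 (ASCT1, ENSMUSG00000020142, chromosome 11, 20302180 to 20332713) exchanges serine, alanine and cysteine and is best known from brain. It had 208 and 311 counts with APAP and 58, 67 and 47 counts with saline, which were 12.2 and 19.2 CPM against 5.198, 4.45 and 3.14 CPM. Both APAP libraries were more than double the highest saline library. The means of 15.7 ± 4.95 CPM (SD, n = 2) and 4.26 ± 1.04 CPM (SD, n = 3) gave a log2 fold change of 1.88 (SE 0.33, adjusted p = 0.0238 by the edgeR test). The fold change lay between 1.51 and 2.27 under the 13 alternatives, and the adjusted p between 0.000118 and 0.113. It was above 0.05 without APAP replicate 1 (0.0569), without APAP replicate 3 (0.113) and without WT2 (0.0977). Relative to the hepatocyte markers of the same library, Slc1a4 was at 0.152 and 0.153 CPM per 1000 CPM of markers with APAP and at 0.03, 0.0354 and 0.0205 with saline, and these groups did not overlap.
Slc1a5 (ASCT2, ENSMUSG00000001918, chromosome 7, 16781340 to 16798274), the glutamine exchanger of many proliferating cells, was at 7.46 and 5.25 CPM after APAP and at 1.61, 5.31 and 7.15 CPM after saline. Without the low library WT1 both groups covered the same range, and the log2 fold change of 0.43 (95% interval −0.92 to 1.78, adjusted p = 0.691) became 0.04. The ratio of Slc1a5 to Slc1a4 per kb was 0.574 and 0.257 with APAP and 0.292, 1.12 and 2.14 with saline. These ranges overlapped (exact permutation test, two-sided, p = 0.4), as WT1 lay between the APAP libraries. The log2 difference was −1.21, and it was −2.01 without WT1, −0.58 without WT3 and −0.63 without APAP replicate 3.

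**Figure D3:**
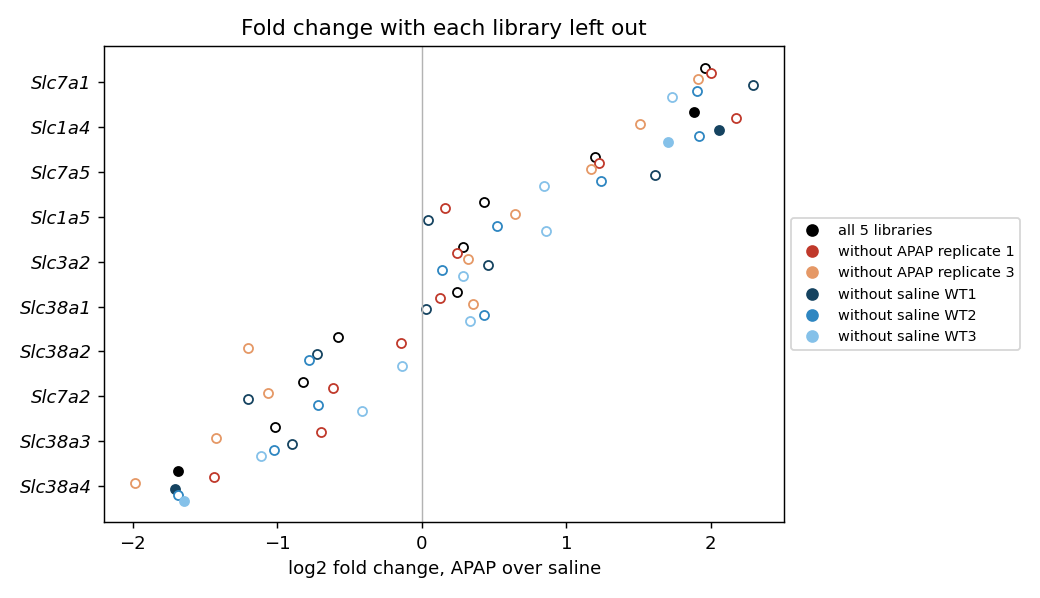
Fitted log2 fold change of each transporter with all 5 libraries (black) and with each library left out in turn. Filled points had an adjusted p under 0.05. All 10 genes kept their sign, and Slc38a4 and Slc1a4 were called without WT1 or WT3 but not without APAP replicate 1, APAP replicate 3 or WT2.

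To compare genes with each other, CPM were divided by the merged exon length of each gene in kb. In saline liver, Slc38a4 was first at 327 ± 17.4 CPM per kb (SD, n = 3), followed by Slc38a3 at 113 ± 16.0, Slc7a2 at 84.0 ± 48.3, Slc38a2 at 34.1 ± 15.7 and Slc3a2 at 13.6 ± 2.81. The other 5 were at 1.12 (Slc1a5), 1.09 (Slc1a4), 0.597 (Slc7a5), 0.121 (Slc38a1) and 0.0877 (Slc7a1) CPM per kb. Neighbours in this order overlapped between libraries for Slc38a3 and Slc7a2, Slc7a2 and Slc38a2, Slc1a5 and Slc1a4, Slc1a4 and Slc7a5, and Slc38a1 and Slc7a1, and were apart for the other 4 pairs. With APAP the first 5 means were in the same order, but the ranges of Slc38a3 and Slc7a2 and of Slc38a2 and Slc3a2 overlapped, as did those of Slc1a5 and Slc7a5, and Slc38a2 was above Slc3a2 in 1 of the 2 libraries. Slc38a4 was at 102 ± 26.1 CPM per kb (SD, n = 2), Slc1a4 was sixth at 4.005 and Slc38a1 was last at 0.145.

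The summed level of the 10 genes was 205 and 299 CPM per kb with APAP and 517, 572 and 638 CPM per kb with saline, without overlap. With library size in place of TMM it was 261 and 326 against 405, 560.1 and 597, so that the groups stayed apart. Slc38a4 made up 40.6% and 40.2% of this sum with APAP and between 54.2% and 60.03% with saline. The share of Slc1a4 was 1.52% and 1.64% with APAP and no more than 0.256% with saline, and that of Slc3a2 was 8.33% and 5.37% against 1.89% to 3.18%. The share of Slc38a3 overlapped between the groups (20.8% and 23.3% against 15.4% to 25.1%). The ratio of Slc38a2 to Slc38a4 per kb was 0.179 and 0.256 with APAP and 0.0851, 0.0728 and 0.151 with saline, higher in both APAP libraries by 1.13 on the log2 scale (exact permutation test, two-sided, p = 0.2, the smallest possible).

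**Figure D4:**
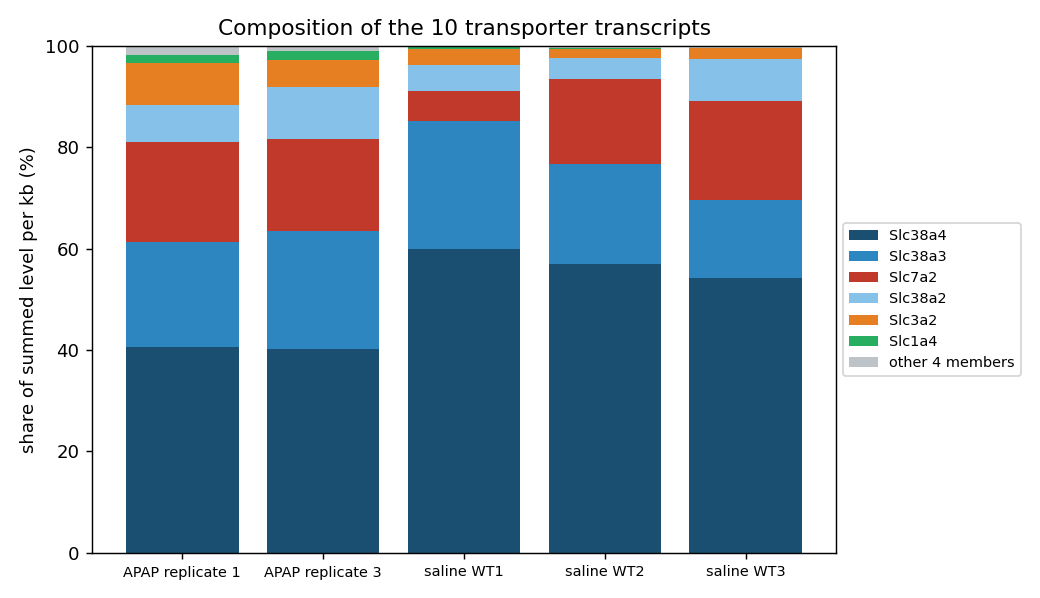
Share of each gene in the summed level per kb (%) of the 10 transporters, 1 bar per library. Slc38a4 took up 40.2% and 40.6% of the bar in the APAP libraries and at least 54.2% in the saline libraries, and the orange (Slc3a2) and green (Slc1a4) segments were larger with APAP.

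The genes whose course over the 5 libraries was most like that of the called members were sought by the root mean square difference of log2 CPM, centred on each gene's mean. For Slc38a4 they were Amy1 (0.0662), an amylase, and Cyp4f15 (0.108), a cytochrome P450. For Slc1a4 they were Vangl1 (0.121), a planar cell polarity protein, and Arsg (0.149), a lysosomal sulfatase. Over 5 libraries in 2 groups such likeness is a description of levels only.

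Among the other amino acid transporters tested, the largest fitted rise was that of Slc7a11 and the largest fitted fall that of Slc1a2. Of 36 genes listed, 20 passed the filter. At an adjusted p under 0.05, 4 of these rose and 2 fell, against 3.7% and 3.53% of all genes tested. Slc7a11 and Slc6a19, among those that rose, passed the filter through the APAP libraries alone. With at least 10 counts in every library, 16 were tested, of which 1 rose and 2 fell. The median log2 fold change of the 20 was −0.02, against 0.03 for all genes tested. The 6 calls became 3 without APAP replicate 1 or WT1 and 2 without WT2. Slc7a11 (xCT), the cystine and glutamate exchanger that pairs with Slc3a2, was at 42.0 and 17.6 CPM with APAP and had 1 count in WT1 and none in WT2 and WT3. It was at least 134-fold higher with APAP than the floor of 3 counts per saline library (79.0-fold without APAP replicate 1). Slc1a2 (GLT-1), a glutamate carrier that is confined to centrilobular hepatocytes in normal liver and one of the centrilobular markers above, was at 0.764 and 1.92 CPM after APAP and at 260.0, 283 and 472 CPM after saline. Its log2 fold change was −7.98 (SE 0.61, adjusted p = 0.00194 by the edgeR test), and it was called in all 13 alternatives. Slc7a11 was called in the 12 alternatives that tested it, but passed the filter through the APAP libraries alone. It could not be tested with at least 10 counts in every library, so these calls add no support.

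Slc16a10 (TAT1), a carrier of aromatic amino acids, was at 43.8 and 20.03 CPM after APAP and at 269.8, 212 and 439.9 CPM after saline. It fell by 3.27 on the log2 scale (adjusted p = 0.0162), and the call was lost without APAP replicate 3 (−2.82, adjusted p = 0.0595) and without WT2 (−3.48, adjusted p = 0.0517). The other 3 that rose lost their calls when single libraries were left out. Slc43a2 (LAT4), which lets large neutral amino acids out of cells, was at 14.0 and 2.97 CPM against 0.807, 1.13 and 1.27 CPM (adjusted p = 0.0439), and its log2 fold change of 2.97 was 1.46 without APAP replicate 1. Slc6a19 (B0AT1) is a neutral amino acid carrier of gut and kidney. It had 109 and 11 counts with APAP and no more than 1 in a saline library (adjusted p = 0.0345 by the edgeR test). It passed the filter through the APAP libraries alone. Its level was at least 15.9-fold above the floor. Without APAP replicate 1, where it did not pass the filter, this was at least 3.05-fold, and without APAP replicate 3 at least 28.7-fold. Both of these calls were lost without any 1 saline library (WT1, WT2 or WT3), with adjusted p between 0.0743 and 0.15, and that of Slc43a2 also without APAP replicate 1 (0.328). Slc6a9 (GlyT1), the glycine carrier, was named after its value was seen. It was at 47.8 and 59.2 CPM against 30.2, 26.3 and 24.8 CPM, a log2 fold change of 0.98 (adjusted p = 0.0379) that was between 0.81 and 1.13, and no longer called, with each library left out.

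The 3 highest saline levels per kb among these other transporters were those of Slc6a13, Slc3a1 and Slc16a10. Slc6a13 (GAT2), a carrier of GABA and taurine, was at 72.0 CPM per kb in saline liver, between Slc7a2 and Slc38a2 of the members. Its log2 fold change was −1.31 (adjusted p = 0.077), and it was called with the likelihood ratio test, the exact test, DESeq2, without a filter and without WT3. Slc3a1 (rBAT), the heavy chain of the cystine and dibasic carrier, was at 45.2 CPM per kb and Slc16a10 at 41.8 CPM per kb. The log2 fold change of Slc3a1 was −0.87 (adjusted p = 0.264), which became −0.36 when APAP replicate 1 was left out and −1.66 when APAP replicate 3 was.

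**Figure D5:**
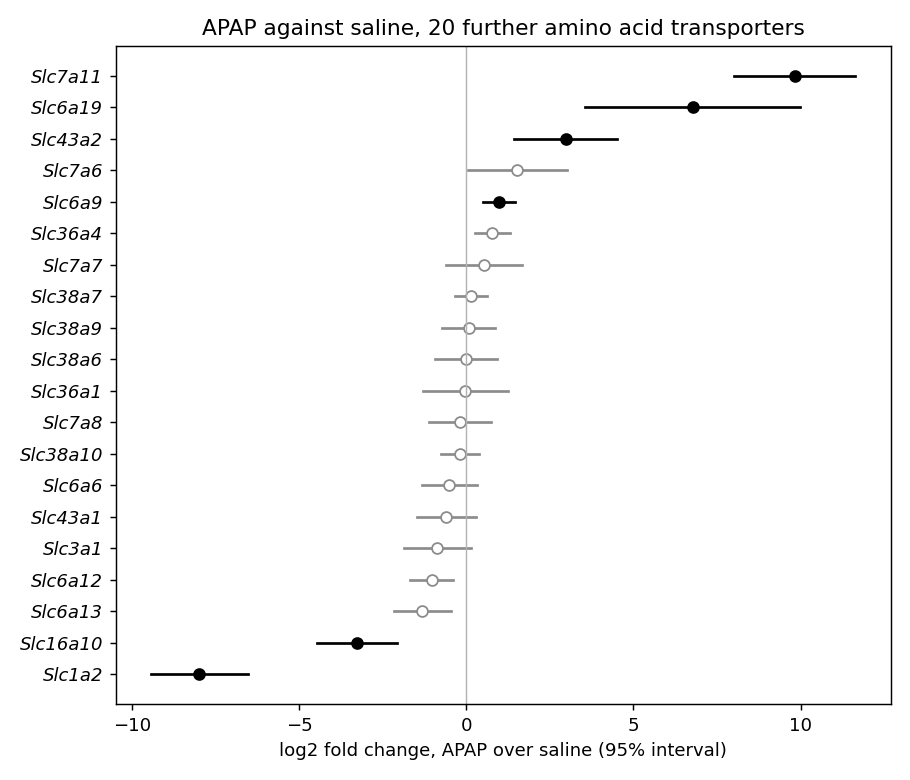
Fitted log2 fold change, APAP over saline, with its 95% interval for the 20 further amino acid transporters that passed the filter. Filled points had an adjusted p under 0.05. Slc7a11 (9.83) and Slc1a2 (−7.98) stand at the ends, and the fitted values of Slc7a11 and Slc6a19, with about no counts in saline libraries, depend on the prior count.

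Genes of the response to amino acid shortage, including Atf4 and the kinases Eif2ak4 and Eif2ak3 upstream of it, were read beside the transporters. Of 21 genes listed, 20 were tested, 5 rose and 1 fell, against 3.7% and 3.53% of all genes tested. With at least 10 counts in every library, 17 were tested, of which 4 rose and 1 fell. Their median log2 fold change was 0.75. The median log2 fold change of the 20 was 0.95, or 0.51 without APAP replicate 3, against 0.03 for all genes tested. The 6 calls became 3 without APAP replicate 3 or without WT2. Asparagine synthetase (Asns) was at 8.40 and 16.2 CPM with APAP against 0.269, 0.465 and 0.534 CPM with saline, the serine synthesis enzyme Psat1 at 48.6 and 41.0 against no more than 0.668 CPM, and the transcription factor Atf3 at 195 and 109.8 against 1.33 to 3.67 CPM. Of these, Atf3 was called in all 13 alternatives. Asns and Psat1 were called in the 12 that tested them, but passed the filter through the APAP libraries alone. They could not be tested with at least 10 counts in every library, so these calls add no support. The amino acid sensing kinase Eif2ak4 (GCN2), with a log2 fold change of 1.55, lost its call without APAP replicate 3 (0.97), WT1, WT2 or WT3. The translation repressor Eif4ebp1 (1.25), named after its value was seen, lost its call without APAP replicate 1, APAP replicate 3, WT2 or WT3, and the lipoprotein receptor Vldlr (−3.15) without APAP replicate 1, APAP replicate 3 or WT2. Over these fits the log2 fold changes were 1.05 to 1.42 for Eif4ebp1, 0.97 to 1.67 for Eif2ak4 and −3.83 to −2.69 for Vldlr. Atf4 itself was at 171 and 173 CPM against 88.6 to 113 CPM, with an adjusted p of 0.0904 from the edgeR test. The 14 tested genes that were not called had log2 fold changes from −0.97 (Shmt2) to 2.43 (Aldh18a1). Between these lay Trib3 (1.81), Ddit3 (1.53), Ppp1r15a (1.32), Psph (0.97), Eif2ak3 (0.93), Atf4 (0.73) and Cebpb (0.66). Lower down were Chac1 (0.39), Nupr1 (0.18), Pck2 (0.12), Sesn2 (0.0009) and Cebpg (−0.24). Of the 20 tested, 17 had a fitted value above 0 and 3 below, against 7145 and 6589 of all 13734 genes tested. Asns and Psat1 are among the 17, and their sign adds no support, since they passed the filter through the APAP libraries alone.

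Genes of amino acid sensing by mTORC1 on the lysosome showed no call. Of 28 genes found in the table, 0 were called by the quasi-likelihood test of edgeR, against 7.23% of all genes tested. By the threshold of the study, 1 of the 28 lay above and 2 below their saline levels, against 12.3% and 11.2% of all genes tested. The likelihood ratio and exact tests called 0. DESeq2 called 2, against 15.2% of all genes tested, and 1 was called with library size only, against 9.75%. Of 12 genes that act on these carriers or on the amino acids they bring, 1 was called higher and 3 lower. This compares with 3.7% and 3.53% of all genes tested. The 8 not called were Nedd4l, Nedd4, Wwp2, Sgk1, Insr, Gcgr, Hnf4a and Arg1. Their log2 fold changes ran from −0.95 (Hnf4a) to 0.54 (Sgk1). Myc rose by 3.31 on the log2 scale (17.5 and 19.3 CPM against 1.34, 1.79 and 2.34 CPM). Glutamine synthetase (Glul), a centrilobular enzyme, fell by 3.74 and the liver glutaminase Gls2, a periportal one, by 2.37, the latter not called without APAP replicate 1 (−2.21, adjusted p = 0.0582). Cebpa, a hepatocyte transcription factor, had a log2 fold change of −1.35 that lost its call with library size only (−0.93, adjusted p = 0.069) and without APAP replicate 1 (−1.53), APAP replicate 3 (−1.20), WT1 (−1.22) or WT2 (−1.33).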

How the data were processed

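The authors sequenced liver RNA on an Illumina NovaSeq instrument, aligned the reads with HISAT2 and deposited unnormalized counts for each gene. GRCm38 (mm10) is named in the submitters' processing notes, and versions, annotation and strand setting are not given in the sources used here. The 5 deposited columns of FPKM were not used, since 1 measure, the counts, was kept. Of 34745 identifiers, 34267 were found in GENCODE M21, which gave exon lengths.

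The filter filterByExpr (at least 10 counts, total at least 15) left 13734 genes, which were tested in edgeR 4.0.16 (R 4.3.3) with TMM and the quasi-likelihood test. The study names edgeR but not the test or an adjustment. Replicates are separate by label only, and no pair agreed within sampling noise (chi-square over its degrees of freedom between 43.2 and 92.2), so p-values measure the spread between libraries. Floors cover counting error only. The alternatives were the likelihood ratio and exact tests, DESeq2 1.42.0, 3 scalings, 2 filters and each library left out. The fit was run on counts simulated with the spread that it had estimated itself, which is a check of the code only. Members, lists and tests were chosen with earlier results of these data known. Named genes are all members, up to 5 called genes per list by size of change with a mean of at least 1 CPM, the 3 highest transporters per kb and the 2 genes most like each called member. Scaling to hepatocyte markers was added after seeing the data. Python 3.11.15 was used for ratios and plots.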

Additional observations from a re-analysis of the deposited data

How the results depend on the processing

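All 10 transporters kept the sign of their log2 fold change under the 13 alternatives, and Slc1a4 and Slc38a4 kept an adjusted p under 0.05 in 10 of them. The 993 genes called overall (7.23%) became 1835 with the likelihood ratio test, 1776 with the exact test and 2093 with DESeq2, and between 165 (without WT2) and 922 with 1 library left out. Without an APAP replicate, the lone APAP library is assumed to vary like the saline libraries. The 2 members called became 4 with DESeq2 and between 0 and 2 with 1 library left out. They were 0 without WT2, where 4 members passed the threshold of the study, against 18.4% of all genes tested. Without APAP replicate 1 and without APAP replicate 3, the log2 fold change was −1.44 and −1.98 for Slc38a4. For Slc1a4 it was 2.18 and 1.51. The 5 members past the threshold of the study became 3 without APAP replicate 1 and between 3 and 6 over the libraries left out. Scaling to library size only moved the median log2 fold change of all genes from 0.03 to 0.42 and the share of calls that were higher from 51.2% to 77.8%. The share of Slc38a3 in the summed level, 1.97 percentage points higher with APAP, ranged from −0.37 (without WT3) to 4.50 (without WT1). The cause of these changes was not tested. The 4 ratios kept their direction and moved by less than their SD pooled over both groups. With 1 library left out, the log2 difference was −1.32 to −0.55 for Slc3a2 to Slc7a5 and 0.87 to 1.44 for Slc38a2 to Slc38a4. It was −2.01 to −0.58 for Slc1a5 to Slc1a4 and 1.97 to 3.53 for Slc7a1 to Slc7a2. No paired analysis was possible because the saline columns carry names that do not match the numbered saline samples. Depth limits Slc38a1, Slc7a1 and Slc7a5, which had under 100 counts in each library.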
